A study of Mus musculus with 9 samples.

Results

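The 9 genes described here are expressed by the oocyte and comprise the zona pellucida genes Zp1, Zp2 and Zp3, the oocyte-secreted growth factors Gdf9 and Bmp15, and the transcription factor genes Figla, Nobox, Sohlh1 and Lhx8. They were found by taking every probe set that the array annotation gives to one of these genes alone, which yielded 11 of 45101 probe sets and all 9 genes, of 18194 genes with a probe set of their own. Of these, 8 genes had 1 probe set, and for Bmp15, which had 3, the probe set with the highest mean over the 9 arrays was used and the others served as a check. The RNA came from XX ovaries grafted at E13.0 (embryonic day, as labelled) under the kidney capsule of male nude mice (XY-host) and taken out after 4, 7, 10, 15 or 20 days, and from E13.0 ovaries before transplantation, called day 0. Days 10, 20 and 0 had 2 arrays each, days 4, 7 and 15 had 1 array each, and each array held a pool of approximately 10 grafts or ovaries.

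All groups, day 0 included, came from wild-type embryos whose mothers had been given busulfan, an alkylating drug that was used to deplete the germ cells. The strain was ICR per the labels, whereas the methods also name C57BL/6. Duplicates are labelled biological, yet how litters and hosts were divided over the pools is not stated, and the p-values thus cover only the spread between pools. All hosts of these arrays were male and all grafts were older than the day 0 ovaries, so that grafting, the sex of the host and age cannot be told apart. In whole tissue, fewer oocytes and less RNA per oocyte cannot be told apart either.

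During normal development of the mouse ovary, female germ cells enter meiosis before birth, become enclosed in primordial follicles around birth and then begin to grow. FIGLA, a basic helix-loop-helix protein, is needed for primordial follicles to form and activates the zona pellucida genes through E-boxes in their promoters. SOHLH1, another protein of that class, acts upstream of the homeobox factors LHX8 and NOBOX, and loss of any of these 3 in the mouse halts follicles at an early stage. The growing oocyte then secretes the zona pellucida, a coat of glycoproteins around the egg, and GDF9 and BMP15, which act on the surrounding granulosa cells.

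Promoter sequences of 6 of the 9 genes (Zp3, Bmp15, Figla, Nobox, Sohlh1 and Lhx8) were matched in RefSeq (GRCm38.p6). The 250 bases before the transcription start are shown for a gene that was high early (Zp3), a gene that was high late (Bmp15), the gene of the E-box-binding regulator itself (Figla) and the gene without an onset (Sohlh1). The E-box CANNTG, the NOBOX element TAATTG and the LHX8 element TGATTG were searched on both strands, and capitals mark their matches, none of which overlapped. Zp3 lies at chr5:135979855-135980104 (+ strand), Bmp15 at chrX:6320725-6320974 (- strand), Figla at chr6:86016941-86017190 (+ strand) and Sohlh1 at chr2:25847249-25847498 (- strand).
Zp3: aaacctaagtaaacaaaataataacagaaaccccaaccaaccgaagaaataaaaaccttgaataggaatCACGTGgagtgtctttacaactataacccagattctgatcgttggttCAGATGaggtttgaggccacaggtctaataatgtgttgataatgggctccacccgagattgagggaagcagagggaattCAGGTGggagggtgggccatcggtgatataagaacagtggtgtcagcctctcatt
Bmp15: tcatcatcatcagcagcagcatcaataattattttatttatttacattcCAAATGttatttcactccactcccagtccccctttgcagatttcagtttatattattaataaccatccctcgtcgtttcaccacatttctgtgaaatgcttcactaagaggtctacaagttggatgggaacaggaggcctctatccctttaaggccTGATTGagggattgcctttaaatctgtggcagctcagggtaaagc
Figla: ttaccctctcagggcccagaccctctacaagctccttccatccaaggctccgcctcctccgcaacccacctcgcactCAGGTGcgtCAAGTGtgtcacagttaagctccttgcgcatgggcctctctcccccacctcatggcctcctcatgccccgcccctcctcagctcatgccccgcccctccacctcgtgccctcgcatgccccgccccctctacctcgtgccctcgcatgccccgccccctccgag
Sohlh1: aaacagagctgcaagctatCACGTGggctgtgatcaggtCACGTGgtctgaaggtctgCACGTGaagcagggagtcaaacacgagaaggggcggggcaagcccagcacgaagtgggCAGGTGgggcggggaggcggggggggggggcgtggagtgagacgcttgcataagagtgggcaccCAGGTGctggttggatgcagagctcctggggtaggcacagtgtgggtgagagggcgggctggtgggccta

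The Zp3 promoter held 3 E-boxes, the first bases of which lay at -181, -134 and -55 from the start. Sohlh1 had 5, and CACGTG made up the 3 farthest from the start. Figla had 2, within 10 bases of each other, and Bmp15 had 1 E-box together with an LHX8 element at -45. The Nobox promoter (chr6:43309555-43309804, - strand) had 2 E-boxes and the Lhx8 promoter (chr3:154330561-154330810, - strand) held no match to any of the motifs. Among 32851 promoters of the same length, 66.2% held at least 1 E-box, 12.2% at least 3 and 1.15% at least 5, 7.17% held a NOBOX element and 12.7% an LHX8 element, so that a single E-box in such a window is common. A match in letters is a description of the sequence and not a binding site.

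The values are log2 intensities, on which a difference of 1 is a 2-fold change, and levels of different probe sets cannot be compared with each other. Day means were fitted with limma to all 45101 probe sets, and a gene was called when the adjusted p-value was under 0.05 and the change was more than 2-fold. The 25th percentile of all values, 4.82, served as a mark for values near background, and changes that start from lower values are of uncertain size. Day 0 means of Zp3 (4.81), Lhx8 (4.29) and Bmp15 (3.89) lay under it.

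The zona pellucida genes were near background on days 0 and 4, were higher on day 7 and were among the probe sets with the largest increase of the whole array by day 10. Zp3, which encodes a sperm-binding protein of the coat, measured 4.66 and 4.96 on day 0, 5.03 on day 4, 8.49 on day 7, 10.84 and 12.74 on day 10, 12.45 on day 15, and 11.63 and 12.38 on day 20. The days 10 and 20 arrays therefore lay far above both day 0 arrays, and their own duplicates differed from each other. Its increase on day 10 against day 0 was 126-fold (6.98 ± 0.63 on the log2 scale, estimate ± SE, limma adjusted p = 0.007) and was the third largest of all probe sets.

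Zp2, which encodes the protein whose cleavage blocks further sperm after fertilization, measured 5.42 and 5.47 on day 0, 5.02 on day 4, 8.42 on day 7, 10.94 and 12.75 on day 10, 12.50 on day 15, and 11.61 and 12.41 on day 20. Its time course followed that of Zp3 closely, and the change on day 10 against day 0 was 6.40 ± 0.60 (84.6-fold, limma adjusted p = 0.00764). Zp1, whose product cross-links the filaments of the coat, measured 4.36 and 5.53 on day 0, 5.08 on day 4, 6.60 on day 7, 8.76 and 10.95 on day 10, 10.64 on day 15, and 10.02 and 10.71 on day 20. It was less high on day 7 than the other two, and its change on day 10 against day 0 was 4.90 ± 0.78 (29.9-fold, adjusted p = 0.0307). All 3 genes had their highest day mean on day 15, a day with 1 array, which lay below replicate 2 of day 10 for each of them. Without replicate 1 of day 10 the highest day mean of all 3 was on day 10, so that no peak on day 15 is read from this.

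Gdf9, a growth factor needed for follicles to pass the primary stage in mice, was still close to its day 0 level on day 7. It measured 6.82 and 7.11 on day 0, 7.02 on day 4, 7.73 on day 7, 10.07 and 12.13 on day 10, 12.34 on day 15, and 12.36 and 12.74 on day 20. The increase was 4.13 ± 0.64 on day 10 (17.5-fold, limma adjusted p = 0.0294) and 5.59 ± 0.64 on day 20 (48.1-fold, adjusted p = 0.00895), each against day 0.

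Bmp15, the X-linked relative of Gdf9, was likewise high only from day 10 on. Its probe set of highest mean measured 4.10 and 3.68 on day 0, 4.60 on day 4, 3.98 on day 7, 6.61 and 8.66 on day 10, 9.79 on day 15, and 10.03 and 10.35 on day 20. Day 7 was thus at the day 0 level, and the day 20 arrays lay above both day 10 arrays. The change against day 0 was 3.75 ± 0.65 on day 10 (adjusted p = 0.0378) and 6.30 ± 0.65 on day 20 (adjusted p = 0.00645, limma).

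The other probe sets of Bmp15 were dimmer and passed the test later. The brighter of them measured 4.09 and 4.65 on day 0, 4.23 on day 4, 4.34 on day 7, 5.33 and 7.61 on day 10, 7.64 on day 15, and 8.13 and 8.46 on day 20. The dimmer measured 4.34 and 4.32 on day 0, 3.60 on day 4, 3.94 on day 7, 4.25 and 5.13 on day 10, 5.99 on day 15, and 5.82 and 6.84 on day 20. Neither passed the test on day 10 (changes of 2.10 and 0.36 against day 0, adjusted p = 0.181 and 0.682), and both passed it on day 20 (3.92 and 2.0, adjusted p = 0.030 and 0.044, limma).

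Among the regulators, Lhx8 changed most. It measured 4.11 and 4.46 on day 0, 4.61 on day 4, 7.24 on day 7, 7.58 and 9.65 on day 10, 9.50 on day 15, and 9.37 and 9.89 on day 20. Its change against day 0 was 4.33 ± 0.66 on day 10 (20.1-fold, limma adjusted p = 0.0275) and 5.35 ± 0.66 on day 20 (40.7-fold, adjusted p = 0.0104). Nobox measured 5.70 and 6.36 on day 0, 6.05 on day 4, 7.71 on day 7, 8.31 and 9.94 on day 10, 9.67 on day 15, and 9.43 and 10.11 on day 20. This homeobox gene was higher by 3.09 ± 0.58 on day 10 (8.54-fold, adjusted p = 0.0462) and by 3.74 ± 0.58 on day 20 (13.4-fold, adjusted p = 0.0193), each against day 0.

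Figla, unlike Lhx8 and Nobox, had a lower mean on day 20 than on day 10. It measured 5.30 and 6.56 on day 0, 5.26 on day 4, 7.47 on day 7, 7.44 and 9.35 on day 10, 8.28 on day 15, and 7.22 and 8.12 on day 20. Arrays of days 10 and 20 lay above both day 0 arrays, which themselves differed by 1.25, and neither change passed the test (2.46 ± 0.74 on day 10, adjusted p = 0.141, and 1.74 ± 0.74 on day 20, adjusted p = 0.207, limma). Nor did its difference of days 20 and 10 pass the test (-0.73 ± 0.74, adjusted p = 0.977).

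Sohlh1 had no increase by day 10 or 20. It measured 6.48 and 6.96 on day 0, 6.27 on day 4, 7.05 on day 7, 6.41 and 7.41 on day 10, 6.08 on day 15, and 5.55 and 5.67 on day 20. On day 10 its arrays overlapped with those of day 0 (change 0.20 ± 0.36, adjusted p = 0.805). Both day 20 arrays lay below all others, and the change against day 0 was -1.11 ± 0.36 (limma adjusted p = 0.120).

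**Figure D1:**
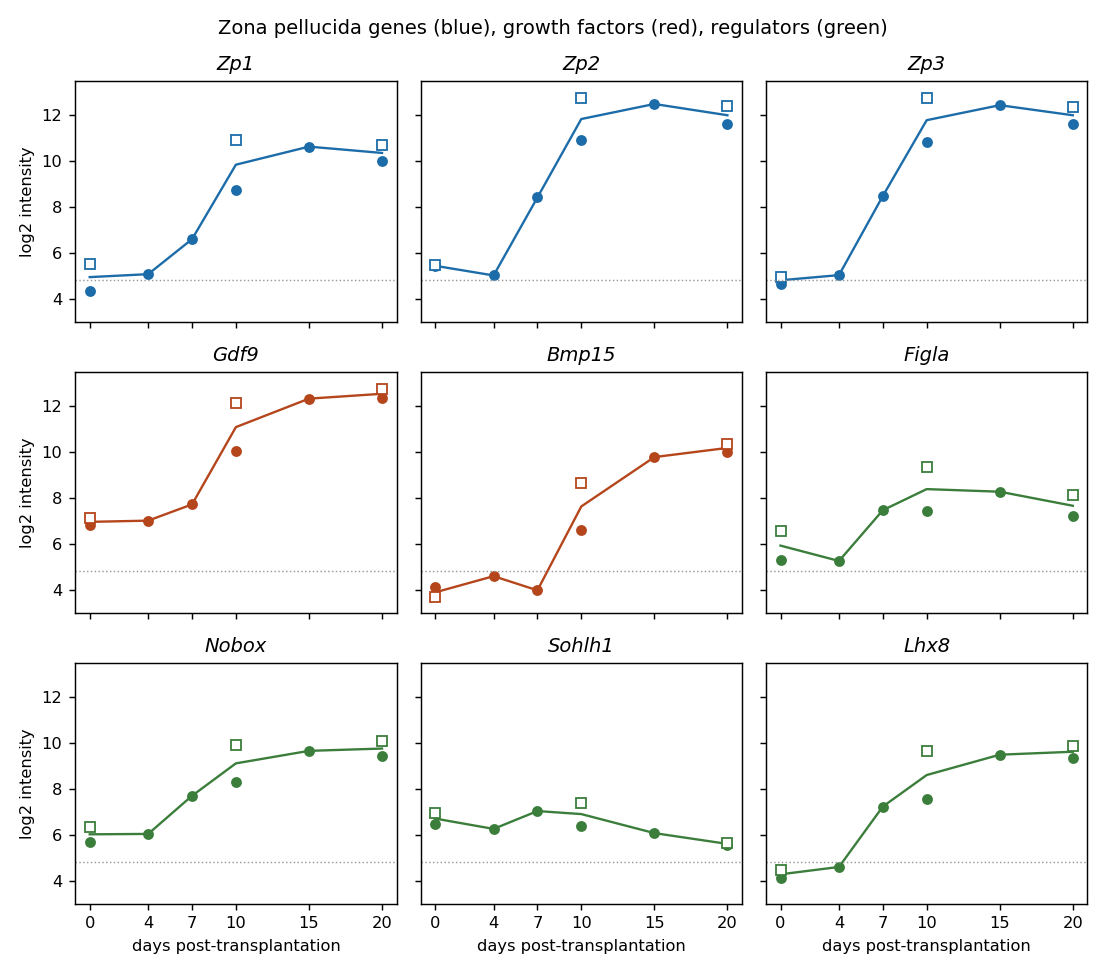
Log2 intensity of the 9 genes on each of the 9 arrays against days post-transplantation. Filled circles are replicate 1 or single arrays, open squares replicate 2, lines join the day means and the dotted line is the 25th percentile of all values (4.82). Replicate 2 of day 10 lies above replicate 1 in all 9 panels.

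In all, 7 of the 9 genes were called higher on day 10 against day 0, while 2.87% of all probe sets were, and none was called lower, against 1.33% of all probe sets. The median change of the 9 genes was 4.13, and that of all probe sets -0.09. Arrays of days 10 and 0 did not overlap for 8 genes, all higher, as for 21.3% of all probe sets, and none was lower without overlap, as for 38.3%. On day 20 against day 0, the same 7 genes (Zp1, Zp2, Zp3, Gdf9, Bmp15, Nobox and Lhx8) were called higher, while 4.52% of all probe sets were, with a median change of 5.42 against -0.11. None was called lower, against 3.1% of all probe sets, and 8 genes did not overlap upwards, as for 18.9% of all probe sets, and 1 downwards (Sohlh1), as for 35.3%. Both comparisons share the day 0 arrays. The single day 15 array gave 6 of 9 called higher against day 0, while 2% of all probe sets were, and none lower, against 0.8%, with Nobox just short of the threshold (3.64 ± 0.71, limma adjusted p = 0.065).

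The calls changed when single arrays were left out. On day 10 against day 0, calls over all probe sets also fell when an array of either day was left out. That day then had a single array, and the loss was not particular to these genes. When either day 0 array was left out, none of the 9 genes was called on day 10 against day 0 (adjusted p up to 0.0578 for Zp3, which stayed nearest to the threshold), and only Zp2 and Zp3 remained called on day 20. The changes on day 10 stayed large in these fits, at 6.83 and 7.13 for Zp3, 6.38 and 6.43 for Zp2 and 3.98 and 4.28 for Gdf9, without replicate 1 and without replicate 2 of day 0. Without replicate 2 of day 10, Zp2 and Zp3 alone were called on day 10 against day 0, as were 84 of all probe sets, and without replicate 1 of day 10 or either day 20 array 5 genes were. Raising all values under the 25th percentile to it ended all calls on day 10 and left Zp3 on day 20.

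The first days after transplantation gave no call. On day 4 against day 0 the changes of the 9 genes ran from -0.67 (Figla) to 0.71 (Bmp15). Of them 0 were called by limma and 0 had an unadjusted p under 0.05. Of all 45101 probe sets, 0.774% were called higher and 0.155% lower, and 4505 had an unadjusted p under 0.05. On day 7 against day 0 the changes ran from 0.09 (Bmp15) to 3.68 (Zp3). Again 0 members were called, against 1.28% of all probe sets higher and 0.386% lower. An unadjusted p under 0.05 was found for 6028 of all 45101 probe sets and for 3 members. They were Zp3 (3.68 ± 0.77, adjusted p = 0.104), Zp2 (2.98 ± 0.74, adjusted p = 0.158) and Lhx8 (2.96 ± 0.81, adjusted p = 0.191), each on a single day 7 array whose spread was taken from the days with duplicate arrays.

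The order of onset was described without a test. Onset was the first day on which every array lay more than 1 above the mean of the day 0 arrays and above both of them, with all later arrays above that line too. By this rule 6 genes, Zp1, Zp2, Zp3, Figla, Nobox and Lhx8, had their onset on day 7, Gdf9 and Bmp15 on day 10, and Sohlh1 had none. A line of 2 in place of 1 left Zp2, Zp3 and Lhx8 on day 7, placed Zp1, Nobox, Gdf9 and Bmp15 on day 10 and gave Figla no onset. Both other probe sets of Bmp15 had their onset on day 15, and without replicate 1 of day 0 Figla had none.

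A finer order came from the share of each gene's log2 rise, the step between the day 0 mean and its highest day mean. On day 7 it was 62.7% for Figla, 55.3% for Lhx8, 48.1% for Zp3, 44.9% for Nobox, 42.2% for Zp2, 29.1% for Zp1, 13.6% for Gdf9 and 1.41% for Bmp15. The line through the day means crossed its midpoint on day 6.58 for Figla, 6.68 for Lhx8, 7.13 for Zp3, 7.40 for Nobox, 7.48 for Zp2, 8.10 for Zp1, 8.81 for Gdf9 and 9.51 for Bmp15. On this log2 scale the regulators and the zona pellucida genes were interleaved in this order, and the growth factors came last. Share and midpoint depend on each probe set's day 0 mean (Nobox 6.03, Figla 5.93, Zp3 4.81 and Lhx8 4.29), which may be background. The order of genes with unlike day 0 means is therefore uncertain. The interleaving also depended on single arrays. Without replicate 2 of day 0, Nobox (7.057) came just ahead of Zp3 (7.062), so that Figla, Lhx8 and Nobox preceded all zona pellucida genes. Without replicate 1 of day 0, Nobox (7.75) fell behind Zp2 (7.49). Neighbours in it, such as Figla and Lhx8 or Zp3 and Nobox, were not told apart, because day 7 had 1 array. Figla's place changed with single arrays. Its midpoint lay on day 7.00 without replicate 1 of day 0, behind Lhx8 (6.78), and on day 7.26 without replicate 1 of day 10, behind Lhx8 (6.69) and Zp3 (7.20).

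**Figure D2:**
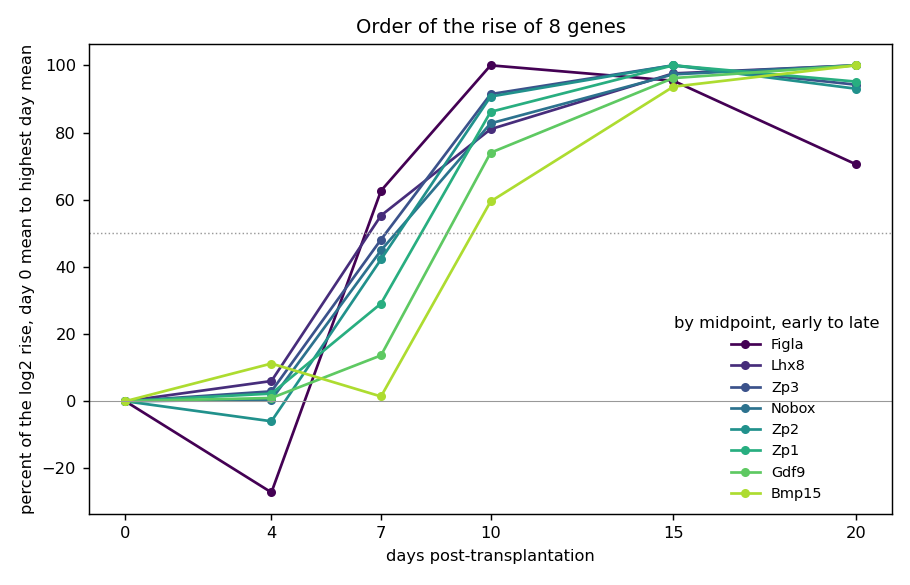
Share of each gene's log2 rise (in percent, day 0 mean to highest day mean) against days post-transplantation for the 8 genes with a rise, coloured by midpoint. Gdf9 (13.6%) and Bmp15 (1.41%) are lowest on day 7 and Figla stands at 70.5% on day 20.

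Between days 7 and 10 the growth factors and the zona pellucida genes moved by like amounts. On day 10 against day 7 the changes were 3.66 for Bmp15, 3.42 for Zp2, 3.37 for Gdf9, 3.31 for Zp3 and 3.25 for Zp1, against 1.41 for Nobox, 1.37 for Lhx8, 0.92 for Figla and -0.13 for Sohlh1. All 5 of the first had an unadjusted p under 0.05, as did 1401 of all 45101 probe sets. In this comparison 0 members, as 0% of all probe sets, were called by limma.

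The duplicates of day 10 stood apart for these genes. Replicate 2 was higher than replicate 1 for all 9 genes, by 1.0 (Sohlh1) to 2.19 (Zp1) with a median of 1.91, and by more than 1 for 8 of them, as for 1.82% of all probe sets. Over all probe sets the day 10 duplicates differed by -0.04 in the median (SD 0.34). Other oocyte products shared the difference (12 of 12 higher on replicate 2, median 1.87), whereas of the receptors and SMADs 2 of 11 were higher on replicate 2 (median -0.16). On day 20 replicate 2 was also higher for all 9 genes, by 0.12 to 0.90.

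Germ cell markers moved between the duplicates as well. The 9 markers Ddx4, Dazl, Mael, Sycp1, Sycp3, Stra8, Rec8, Tex101 and Dnd1 were all higher on replicate 2 of day 0 than on replicate 1 (median 2.23), and their summed linear level was 1537 to 2159 on day 20, 929 to 2802 on day 10 and 1932 to 6735 on day 0. Ddx4, which marks germ cells of both sexes, measured 7.37 and 9.61 on day 0, 4.76 on day 4, 5.84 on day 7, 6.76 and 8.74 on day 10, 8.80 on day 15, and 8.21 and 8.77 on day 20. Against day 0 it was not called (-0.75 on day 10 and -0.0018 on day 20). Rec8, a meiotic cohesin, was the 1 marker of the 9 called, and it was lower on both days (-3.43, limma adjusted p = 0.00422, and -3.74, adjusted p = 0.00224). Over all probe sets 1.33% and 3.1% were called lower on days 10 and 20. Stra8, which meiosis in the fetal ovary requires, and Tex101 changed by -2.63 and -2.16 on day 10 and by -2.63 and -2.29 on day 20 and were not called. On day 10, 5 of the 9 markers were higher on replicate 2, and Stra8, Rec8, Tex101 and Dnd1 were not. Of the 9 members 8 were higher on replicate 2 of day 0 too, by 0.05 (Zp2) to 1.25 (Figla), while Bmp15 differed by -0.43. The part of germ cell numbers in the members' changes was not tested.

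**Figure D3:**
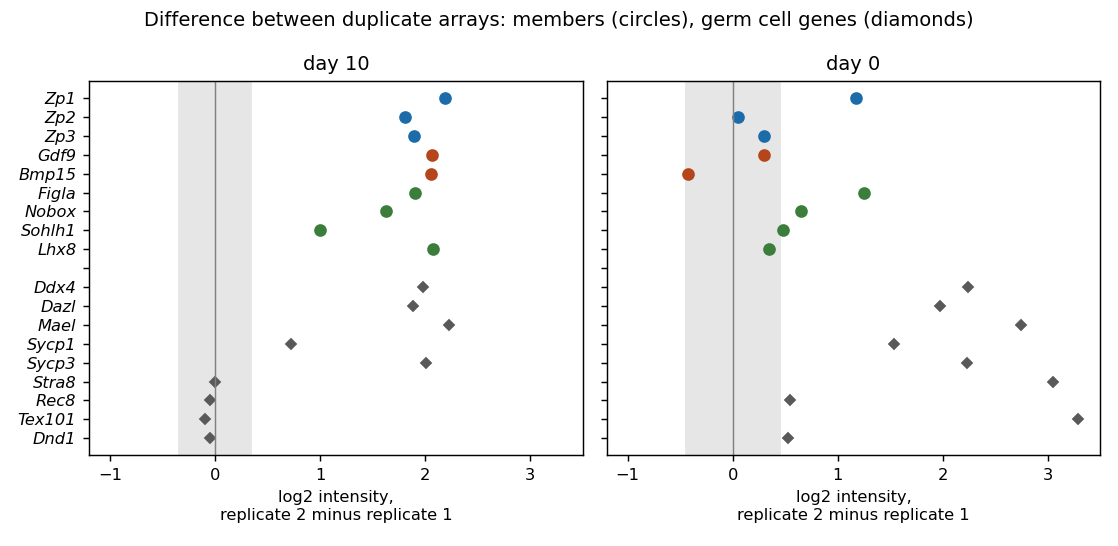
Log2 difference of replicate 2 minus replicate 1 on day 10 (left) and day 0 (right) for the 9 members (circles) and 9 germ cell markers (diamonds); the grey band is ± 1 SD of that difference over all probe sets (0.34 and 0.45). All members lie right of the band on day 10, and all germ cell markers on day 0.

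Markers of other tissues were checked in the same way. The 10 kidney markers had a summed level of 28078 on replicate 1 and 448 on replicate 2 of day 20, 438 to 620 on day 10 and 525 to 583 on day 0, so that replicate 1 of day 20 stood apart. All 9 members were lower on that array than on replicate 2, and their changes on day 20 against day 0 without it ran from -1.05 (Sohlh1) to 7.57 (Zp3). The 5 markers of male germ cells after meiosis, Prm1, Prm2, Tnp1, Tnp2 and Acrv1, gave no call (median changes of -0.10 on day 10 and -0.05 on day 20 against day 0). Of 5 macrophage markers, 4 were called higher on day 10 and 5 on day 20 against day 0, while 2.87% and 4.52% of all probe sets were. Among them were Lyz2 (4.56 and 5.33), Cd14 (2.74 and 3.15), Csf1r (2.13 and 2.98) and Cd68 (1.89 and 2.36). Of 6 ovarian somatic markers, 2 were called lower on day 10 and 3 on day 20, while 1.33% and 3.1% of all probe sets were. They were Fst and Nr5a1 (-1.50 and -2.03) on both days and Gata4 on day 20 (-2.18, adjusted p = 0.0379, after -1.48, adjusted p = 0.134, on day 10, limma). Foxl2 changed the other way (1.29 and 0.83) and was not called. On day 20, 5 of these 6 markers were higher on replicate 2 than on replicate 1 (median difference of the 6, 1.14). The part of these cells in the members' changes was not tested.

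On day 20 against day 10, 0 of the 9 genes were called by limma (0.00222% of all probe sets were higher and 0% lower). An unadjusted p under 0.05 was found for 2253 of all 45101 probe sets and for 2 of the 9 genes. These were Bmp15 (2.55 ± 0.65, unadjusted p = 0.00831 and adjusted p = 0.763 by limma) and Sohlh1 (-1.30 ± 0.36, unadjusted p = 0.0122 and adjusted p = 0.820 by limma). The arrays of the 2 days did not overlap for 2 genes upwards (Gdf9 and Bmp15), as for 13.2% of all probe sets, and for 1 downwards (Sohlh1), as for 16.7%. The zona pellucida genes differed by 0.51 (Zp1), 0.16 (Zp2) and 0.21 (Zp3), within the spread of the day 10 duplicates.

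The members were also set against the mean of Zp1, Zp2 and Zp3 on the same array, a scaling chosen after the values were seen. On that scale the day 10 duplicates of Gdf9, Bmp15, Figla, Nobox and Lhx8 differed by 0.06 to 0.33, and those of Sohlh1 by 0.97. Gdf9 stood at 1.27 and 0.91 on day 20 and at -0.11 and -0.01 on day 10. Bmp15 stood at -1.05 and -1.48 on day 20 and at -3.57 and -3.48 on day 10. Both growth factors were thus higher relative to the zona pellucida genes on day 20 than on day 10, by 1.16 and 2.26 in the mean. On the single day 7 array Gdf9 stood at -0.11 and Bmp15 at -3.86.

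Lhx8, at -1.71 and -1.94 on day 20 and -2.60 and -2.49 on day 10, was higher on day 20 by 0.72 on that scale. Nobox, at -1.66 and -1.72 on day 20 and -1.87 and -2.20 on day 10, was higher by 0.35. Both genes were lower on these days than on the single day 7 array (-0.60 for Lhx8 and -0.13 for Nobox). So were Figla and Sohlh1 (-0.36 and -0.79 on day 7). Figla stood at -3.87 and -3.72 on day 20 and at -2.74 and -2.80 on day 10, lower by 1.02, and Sohlh1 at -5.53 and -6.16 on day 20 and at -3.77 and -4.73 on day 10, lower by 1.60. Zp1, Zp2 and Zp3 themselves differed by 0.22, -0.13 and -0.08 on that scale, and the arrays of days 20 and 10 did not overlap for any of the 9 genes, those 3 included, so that nothing is read from the lack of overlap. An exact two-sided permutation test of 2 against 2 arrays cannot give a p-value below 0.333.

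**Figure D4:**
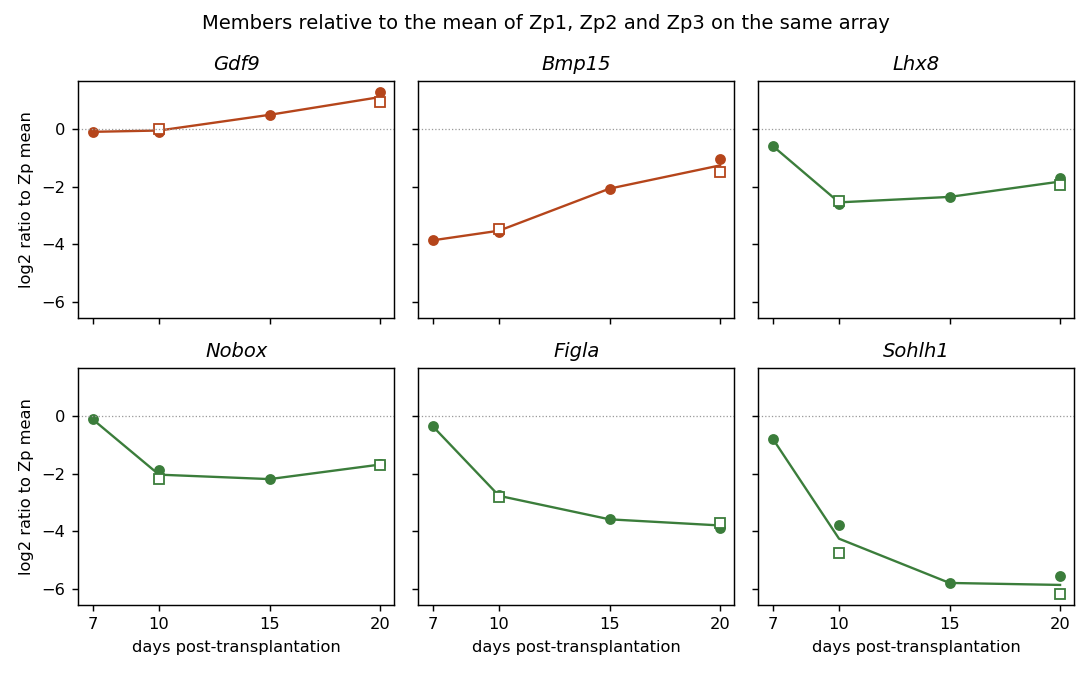
Log2 intensity of 6 genes minus the mean of Zp1, Zp2 and Zp3 on the same array, against days post-transplantation from day 7 on (filled circles, replicate 1 or single arrays; open squares, replicate 2; lines, day means). Only the change between arrays can be read: Gdf9 and Bmp15 are higher on day 20 than on day 10, and Figla and Sohlh1 lower. Lhx8, Nobox, Figla and Sohlh1 stand highest on the single day 7 array.

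Other products of growing oocytes, of which 12 of 14 listed were measured, were higher in the grafts as well. On day 10 against day 0, 7 of 12 were called higher and 0 lower, and on day 20, 11 of 12 higher and 0 lower, with median changes of 3.17 and 4.88. All probe sets had shares of 2.87% and 4.52% called higher and 1.33% and 3.1% called lower. Those called on both days included Nlrp14 (7.59 on day 10 and 8.38 on day 20), Padi6 (6.07 and 6.21), Oosp1 (5.73 and 7.69), Nlrp5 (5.31 and 5.93) and Rfpl4 (4.95 and 7.01). Pou5f1, a pluripotency factor that oocytes also express, changed by -0.29 and 0.28 and was not called.

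By the rule used for the members, 4 of these products had their onset on day 7 (Padi6, Nlrp5, Nlrp14 and Gja4), 6 on day 10 (Mos, Zar1, Oosp1, Rfpl4, H1f8 and Astl), 1 on day 15 (Fgf8) and 1 none (Pou5f1). Padi6, Nlrp5 and Nlrp14, which encode proteins of the egg that support the early embryo, were higher by 3.23, 2.48 and 3.51 on day 7 against day 0. Gja4 passed the line only narrowly on that single array, with a change of 1.04. Mos, a kinase of oocyte maturation, and Oosp1, an oocyte-secreted protein, differed from day 0 by 0.26 and 0.34 on day 7.

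**Figure D5:**
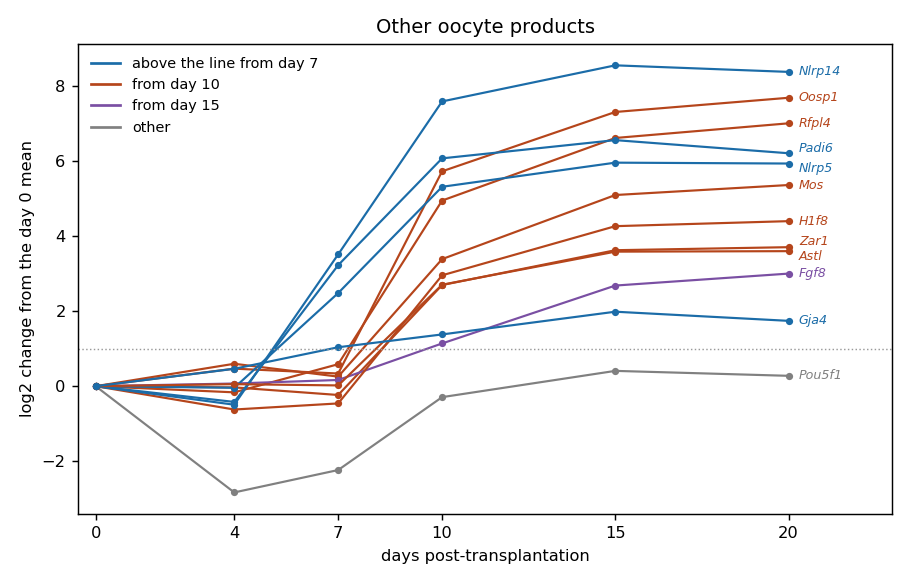
Mean log2 change from the day 0 mean of 12 other oocyte products against days post-transplantation, coloured by day of onset (dotted line, a change of 1). Nlrp14, Padi6, Nlrp5 and Gja4 are above the line from day 7, Mos, Zar1, Oosp1, Rfpl4, H1f8 and Astl from day 10.

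Other regulators of early oocytes did not pass the test. Of 7 measured (Sohlh2, Taf4b, Ybx2, Kit, Foxo3, Tbp and Cpeb1), limma called 0 on day 10 and 0 on day 20 against day 0. An unadjusted p under 0.05 was found for 3 and 2 of them, and for 9403 and 12098 of all 45101 probe sets. The largest change was that of Cpeb1, which encodes a protein that controls stored oocyte messengers (2.53, adjusted p = 0.175, and 3.48, adjusted p = 0.061). Sohlh2, the partner of Sohlh1, changed by -1.21 and -1.24 (adjusted p = 0.330 and 0.259).

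The receptors and signal carriers of GDF9 and BMP15 gave no call. GDF9 acts through BMPR2 and TGFBR1 on SMAD2 and SMAD3, and BMP15 through BMPR2 and BMPR1B on SMAD1 and SMAD5. Of the 11 genes measured, limma called 0 on either day, and the median changes were 0.08 and -0.10. An unadjusted p under 0.05 was found for 5 and 6 of the 11, and for 9403 and 12098 of all 45101 probe sets. Smad6, an inhibitor of BMP signals, had the largest change of the 11 on each day (-1.02, limma adjusted p = 0.116, and -1.26, adjusted p = 0.0506). Smad3 changed by 1.01 on day 10 and by 0.32 on day 20 (adjusted p = 0.170 and 0.582). Smad7, another inhibitor of these signals, changed by -0.74 and -0.94 (adjusted p = 0.0907 and 0.0341), and its day 20 change was not called because it was under 2-fold.

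Among 15 somatic genes of the follicle, 2 were called higher and 1 lower on day 10, and 3 higher and 1 lower on day 20, each against day 0. Of all probe sets, 2.87% and 4.52% were called higher and 1.33% and 3.1% lower on these days. Inha, the inhibin alpha subunit of granulosa cells, was higher by 2.88 and 3.01 (limma adjusted p = 0.00844 and 0.00515), and Tnfaip6, a matrix protein that is also induced in inflammation, by 2.51 and 1.76 (adjusted p = 0.00658 and 0.0105). Inhba passed on day 20 (1.90, adjusted p = 0.0339). Fst, the activin-binding follistatin, was lower (changes of -1.77 and -2.30, adjusted p = 0.00723 and 0.00278). Amh, made by granulosa cells of growing follicles, changed by 0.17 and 0.12.

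The genes whose pattern over the 9 arrays was most like the average pattern of the members were also oocyte genes in part. Of 4412 eligible genes the 10 with the highest Pearson's r (0.98 to 0.99) were Kdm1b, Unc13c, Padi6, Nlrp5, Nlrp14, Slc23a3, Khdc3, Trp63, Pkd2l2 and Vwf. Padi6, Nlrp5 and Khdc3 encode parts of one complex of the egg and Kdm1b a histone demethylase of growing oocytes, while Vwf is best known from endothelium. The arrays are shared by all genes, so that r is a description. Among the members themselves r with that average ran from 0.88 (Bmp15) to 0.99 (Nobox), apart from Sohlh1 (-0.15). Each member is itself part of the average, so that its r is partly built in and cannot be set against those of the other genes.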

How the data were processed

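RNA of ovarian grafts and of ovaries before transplantation was measured on 9 Affymetrix whole-genome mouse arrays, grouped by day. The deposited log2 intensities are the output of the authors' RMA normalization (robust multiarray algorithm), in which background is corrected, the arrays are brought to a common distribution and the probes of each set are combined. Array medians therefore lay close together (6.49 to 6.63), and changes are relative to the other transcripts. No RMA version is stated. Labelling was done with either of 2 kits, without a record of the kit by array. The number of arrays limits the precision.

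Names came from the platform annotation, in which 34958 probe sets had a single gene symbol, 932 several and 9211 none, and no probe set with several symbols named a member. For lmFit and eBayes (limma 3.58.1, run under R 4.3.3), 1 mean per day gave 3 residual degrees of freedom, with 2.69 prior degrees of freedom and a prior variance of 0.0423, and p-values were adjusted over all 45101 probe sets by Benjamini-Hochberg. Python 3.11.15 with pandas 2.3.3 and numpy 2.4.6 was used for tables, and matplotlib 3.10.9 for plots. From each list of follicle and oocyte genes, up to 4 called genes with the largest change on day 10 or 20 were named, or up to 2 where none was called. Nlrp5, Pou5f1, Amh, Smad7, Sohlh2, single markers and the genes given by onset were added after their values were seen. Npm2, Oog1, Tbpl2 and Cyp19a1 had no probe set of their own. The members and lists were chosen with earlier results of these data known.

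The alternatives were an intensity trend, array quality weights, quantile normalization or median centring of the deposited values, only probe sets above the median, low values raised to the 25th percentile, fits on the days compared alone, the replicate number as a block, a 1.5-fold threshold, single arrays left out, other probe sets, and the scaling to the zona pellucida genes, which was added after the values were seen.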

Additional observations from a re-analysis of the deposited data

How the results depend on the processing

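All 7 genes called on days 10 and 20 kept their direction under every alternative run. Of the 9 settings other than leaving out an array, raising values under the 25th percentile to it ended all 7 calls on day 10 and 6 on day 20 (0 and 1 genes called, and 0 on day 15), also for Zp2, none of whose values were raised (change 6.40, adjusted p = 0.0695). Only the arrays of days 10 and 0 ended the calls of Bmp15 and Nobox, and array quality weights those of Zp1 and Nobox on day 20. Leaving out single arrays gave 0 to 5 genes called higher on day 10, 2 to 7 on day 20 and 0 to 6 on day 15 against day 0, lowest without either day 0 array, and 5 to 6 genes with an onset by day 7. A line of 2 gave 3.

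Over all probe sets, 1892 were called on day 10, 3433 on day 20, 1261 on day 15, 753 on day 7 and 419 on day 4 against day 0 and 1 on day 20 against day 10, and these counts moved more. With array quality weights, 3114 (day 10), 2342 (day 15), 977 (day 4) and 1475 (day 7) were called against day 0, and 4 on day 15 against day 10. Raised low values gave 451 (day 10), 283 (day 15), 116 (day 4) and 196 (day 7), with 944 on day 20 against day 0, 2 on day 20 against day 10, 9 on day 7 against day 4, 8 on day 10 against day 7, 4 on day 15 against day 10 and 5 on day 20 against day 15. Only the arrays of days 20 and 0 gave 1491, those of days 20 and 10 gave 0, as did only probe sets above the median, and an intensity trend gave 1 on day 15 against day 10. Without single arrays the counts ran from 84 (without replicate 2 of day 10) to 2737 on day 10, from 911 (without replicate 1 of day 0) to 6319 (without replicate 2 of day 20) on day 20, from 95 to 2379 on day 15, from 0 to 801 on day 4 and from 0 to 1372 on day 7 against day 0, from 0 to 1315 on day 20 against day 10 and from 0 to 879 on day 20 against day 15. The cause was not tested.

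The replicate numbers were not treated as pairs in the main fit. Over all probe sets, correlations of replicate differences were -0.158 for days 0 and 10, 0.154 for days 0 and 20 and -0.128 for days 10 and 20. These do not settle whether pools of the same number were linked. Of the 9 members, 8 were higher on replicate 2 of day 0, and 9 on replicate 2 of days 10 and 20. With the replicate block, 1405 probe sets were called on day 10, 2994 on day 20 against day 0 and 0 on day 20 against day 10. Bmp15 lost its call on day 10 (adjusted p = 0.0549), and Figla gained one on day 10 (adjusted p = 0.0279) and on day 20 (adjusted p = 0.0379), so that 7 and 8 members were called.

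Only changes that had not passed the test turned their sign. On day 4 against day 0 these were Zp1 with raised low values (-0.10), Nobox with centred arrays (-0.013) and Bmp15 by its other probe sets (-0.14 and -0.72), which also gave -0.025 and -0.39 on day 7 against day 0 and 0.12 and 0.33 on day 7 against day 4. Without single arrays the ranges were, on day 10 against day 0, -0.30 to 0.69 for Sohlh1, on day 4, -0.46 to 0.71 for Zp1, -0.10 to 0.20 for Gdf9 and -0.31 to 0.34 for Nobox, and on day 7, -0.12 to 0.30 for Bmp15. On day 20 against day 10 they were -0.58 to 1.61 for Zp1, -0.74 to 1.07 for Zp2, -0.73 to 1.16 for Zp3, -1.68 to 0.23 for Figla, -0.17 to 1.46 for Nobox and -0.020 to 2.05 for Lhx8. On day 10 against day 7 they were -0.033 to 1.87 for Figla and -0.63 to 0.37 for Sohlh1. On day 15 against day 10 they were -0.31 to 1.88 for Zp1, -0.25 to 1.56 for Zp2, -0.29 to 1.60 for Zp3, -1.07 to 0.84 for Figla, -0.27 to 1.36 for Nobox and -0.15 to 1.92 for Lhx8, and on day 20 against day 15, -0.62 to 0.073 for Zp1, -0.24 to 0.44 for Nobox and -0.13 to 0.39 for Lhx8.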
